A study of Mus musculus with 11 samples.

Results

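This report describes 8 genes used as markers of oligodendrocyte precursors, in mouse embryonic cortex at E14.5. The genes are Olig1, Olig2, Sox8, Sox10 and Nkx2-2, which encode transcription factors, Pdgfra and Egfr, which encode receptor tyrosine kinases, and Cspg4, which encodes the NG2 proteoglycan. They were chosen by symbol, with earlier results of these data known. Each matched a single locus among the 24138 loci of the deposited expression table. There were 2 libraries of conditional knockouts (cKO), labelled Chd8 c/c with Emx1-cre, a recombinase line active in progenitors of the dorsal telencephalon and their progeny. They were set against 3 controls without Cre. Control 1 was labelled Chd8 c/+ and controls 2 and 3 Chd8 c/c, so every group carried at least 1 conditional Chd8 allele. No label says whether a library came from a single embryo, so p-values measure the spread between these libraries only, which may be technical. A further 6 ATAC-seq samples of sorted progenitors were not analysed here.

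Oligodendrocyte precursors are the dividing cells that later form the myelinating oligodendrocytes. In the mouse forebrain the earliest ones arise from ventral progenitors and migrate into the cortex, and a dorsal source that shares the Emx1 lineage follows later. Olig2 specifies the lineage, Sox10 maintains it, and the growth factor PDGF-A drives its division through the receptor encoded by Pdgfra. None of the 8 genes is exclusive to these cells. Olig1 and Olig2 are also transcribed in ventral telencephalic progenitors, Pdgfra in meningeal fibroblasts, Cspg4 in pericytes, Sox10 in neural crest derivatives and Nkx2-2 in the hypothalamus and thalamus. In whole cortex, fewer cells of a type and less RNA per cell cannot be told apart.

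Olig2 and Pdgfra were higher in both cKO libraries than in every control, at 1.70 and 1.87 times the control mean, Sox8 and Cspg4 were at 1.17 and 1.12 times, and Nkx2-2 was close to absent in the cKO but also in 1 control. Values are FPKM, an abundance scaled by transcript length and library size. Of the 8 members, 6 averaged 1 FPKM or more over the libraries and entered the test over 12672 loci; Sox10 and Egfr did not. The test was limma on log2(FPKM + 1), with Benjamini-Hochberg adjustment over all tested loci. No member was called at an adjusted p under 0.05 (2 had an unadjusted p under 0.05, as had 7.45% of all tested loci), and 6 of all tested loci were (0.0473%), each with the symbol of a small nucleolar RNA or a microRNA. That count was 27 without cKO replicate 1, 35 without cKO replicate 2 and 13 without either control replicate 1 or control replicate 2, and no member was among them. Without 1 cKO replicate the spread came from the 3 controls alone, and the lone cKO library was assumed to vary like them. Both cKO libraries lay above every control for 3 of the 6 tested members (Olig2, Pdgfra and Cspg4), against 13.4% of all tested loci. For Cspg4 the margin was 0.0245 FPKM. The members were chosen with earlier results known, so this count is a description only. None of the 6 lay below every control in both cKO libraries, against 15.6% of all tested loci. The median log2 change of the 6 was 0.32, beside -0.02 over all tested loci.

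**Figure D1:**
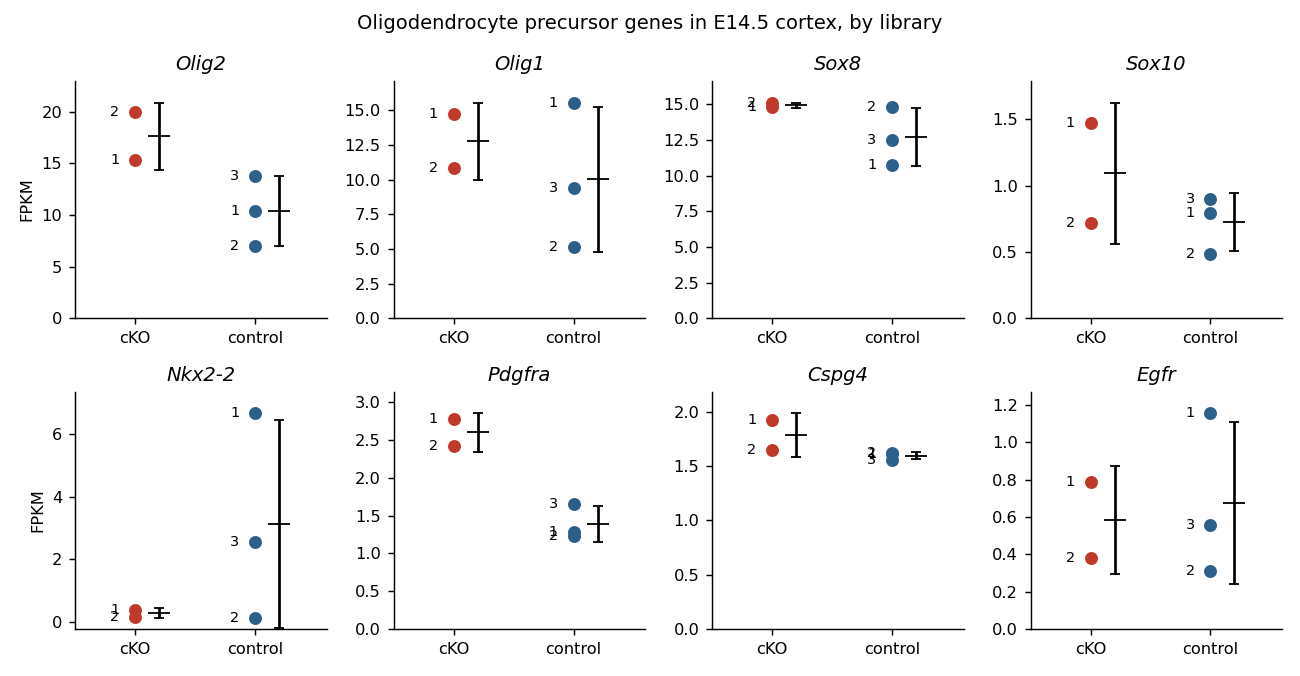
FPKM (vertical axes, starting at or just below 0) of the 8 members in the 2 cKO libraries (red) and 3 control libraries (blue), numbered by replicate, with the mean and SD of each group as a bar. Olig2 and Pdgfra have both cKO points above every control point, while the control points of Nkx2-2 spread between 0.129 and 6.68 FPKM.

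The targeted gene was checked first. Chd8 had 19.3 and 15.1 FPKM in the cKO libraries, against 31.5, 30.02 and 31.8 FPKM in controls 1 to 3. Both cKO libraries were below every control, at 0.552 times the control mean. Even so, limma missed the targeted gene at the threshold used (adjusted p = 0.575, unadjusted p = 0.0017). The authors marked Chd8 significant, at a q-value of 0.0033. The lack of a call for a member therefore does not show that its level was unchanged. A protocol field of these samples names Eed, a Polycomb gene, as the knockout, whereas titles, genotypes and the groups used here name Chd8. Eed was at 19.02 and 18.1 FPKM in the cKO, against 17.8, 20.9 and 20.8 FPKM in controls 1 to 3, and the groups overlapped. Neurod6, a transcription factor of cortical projection neurons, was at 214 and 139 FPKM in cKO libraries 1 and 2 and at 132, 306 and 246 FPKM in controls 1 to 3, so every library held the labelled tissue. FPKM summed to between 418191 and 484296 per library. Control 1 stood apart in genes of other brain regions, which are given beside Nkx2-2.

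Olig2, the basic helix-loop-helix factor that specifies the oligodendrocyte lineage, lies on chromosome 16 from 91225550 to 91228677 (GRCm38). It had 15.3 and 19.9 FPKM in cKO libraries 1 and 2, against 10.4, 6.98 and 13.8 FPKM in controls 1 to 3. Every cKO value exceeded every control value, by 1.58 FPKM at the nearest pair. The means were 17.6 ± 3.24 FPKM in the cKO (SD, n = 2) and 10.4 ± 3.39 FPKM in the controls (SD, n = 3), a ratio of 1.70. In limma the log2 change was 0.75 (SE 0.29), with an unadjusted p of 0.0439 and an adjusted p of 0.575. The exact two-sided permutation p, over the 10 ways to divide 5 libraries into 2 and 3, was 0.2, where the smallest possible is 0.1. Olig2 had a q-value of 0.0586 and a log2 fold change of 0.77 in the authors' deposited table and was not marked significant.

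Olig1, the paralogue of Olig2 that acts in oligodendrocyte maturation, lies 41.1 kilobases further along the same chromosome (91269769 to 91271939). Its values were 14.7 and 10.8 FPKM in the cKO, against 15.6, 5.16 and 9.37 FPKM in controls 1 to 3. The groups overlapped, since control 1 was the highest of all 5 libraries and control 2 the lowest. The log2 change was 0.42 (SE 0.42; limma adjusted p = 0.709). Leaving out control replicate 1 gave 0.77 and leaving out control replicate 2 gave 0.06. Olig1 and Olig2 did not vary in step: the ratio of Olig2 to Olig1 FPKM was 1.04 and 1.84 in cKO libraries 1 and 2, and 0.666, 1.35 and 1.47 in controls 1 to 3.

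Pdgfra encodes the receptor alpha chain for platelet-derived growth factor, the mitogen receptor of oligodendrocyte precursors (chromosome 5, 75151322 to 75198206). Its locus in the deposited table also carried the symbol Mir7025, a microRNA gene within the same interval, so the value is that of the joined locus. It was 2.78 and 2.42 FPKM in the cKO, against 1.28, 1.23 and 1.65 FPKM in controls 1 to 3. Both cKO libraries were above every control and the 3 controls lay close together. The means were 2.60 ± 0.254 FPKM in the cKO (SD, n = 2) and 1.39 ± 0.233 FPKM in the controls (SD, n = 3), a ratio of 1.87, the highest among the 8 members. In limma the log2 change was 0.59 (SE 0.19), with an unadjusted p of 0.0239 and an adjusted p of 0.575, and the exact permutation p was 0.1. Olig2 and Pdgfra were the tested members with an unadjusted p under 0.05 and a higher level in the cKO, 2 of 6, where 3.08% of all tested loci met this. The authors' deposited table gave Pdgfra a log2 fold change of 0.91 and a q-value of 0.351.

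**Figure D2:**
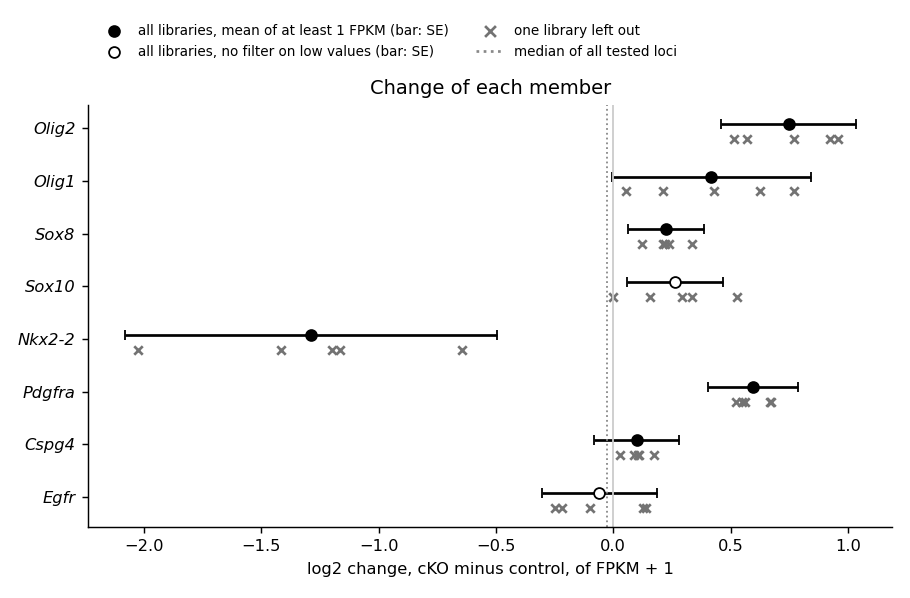
Log2 change of each member (horizontal axis, cKO minus control on log2 of FPKM + 1) with its SE; open circles mark Sox10 and Egfr, which fell under the filter on low values, crosses mark fits with 1 library left out, and the dotted line is the median of all tested loci. Olig2 and Pdgfra stay above 0.5 in every such fit, and Nkx2-2 runs between -2.03 and -0.64.

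Sox8 and Sox10 are related SOX factors that act together in oligodendrocyte development. Sox8 (chromosome 17, 25565893 to 25570686) was 14.8 and 15.1 FPKM in the cKO, against 10.8, 14.8 and 12.5 FPKM in controls 1 to 3. Control 2 was level with cKO 1, and the log2 change was 0.23 (SE 0.16; limma adjusted p = 0.630). Leaving out control replicate 1 gave 0.12 and leaving out control replicate 2 gave 0.34. The overlap ended under upper quartile scaling and quantile normalization, where both cKO libraries lay above every control. Sox10 (chromosome 15, 79154913 to 79164490) was 1.47 and 0.716 FPKM in the cKO, against 0.793, 0.484 and 0.901 FPKM in controls 1 to 3. One cKO library was the highest of the 5 and the other lay within the controls. In a fit without the filter on low values the log2 change of Sox10 was 0.26 (SE 0.20; limma adjusted p = 0.714), and without cKO replicate 1 it was -0.00048. Sox10 was thus the low member of the pair in every library.

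Cspg4 (chromosome 9, 56865104 to 56899870) was 1.93 and 1.65 FPKM in the cKO, against 1.61, 1.62 and 1.56 FPKM in controls 1 to 3. The groups did not overlap, but cKO 2 was 0.0245 FPKM above the highest control, and the log2 change was 0.10 (SE 0.18; limma adjusted p = 0.839). That change was 0.03 with cKO replicate 1 left out and 0.17 with cKO replicate 2 left out, and the groups overlapped after quantile normalization. Egfr (chromosome 11, 16752203 to 16913907), the epidermal growth factor receptor of late progenitors, was 0.790 and 0.379 FPKM in the cKO, against 1.16, 0.311 and 0.555 FPKM in controls 1 to 3. Both cKO values lay inside the control range. Without the filter its log2 change was -0.06 (SE 0.24; limma adjusted p = 0.936), and its sign turned without control replicate 1 (0.14) and without cKO replicate 2 (0.13).

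Nkx2-2, a homeobox factor of ventral neural tube progenitors that also acts in oligodendrocyte differentiation, lies on chromosome 2 from 147176485 to 147195434. It was 0.397 and 0.174 FPKM in the cKO, against 6.68, 0.129 and 2.55 FPKM in controls 1 to 3. Control 2 was lower than either cKO library and control 1 was far above the rest, so the groups overlapped. The means were 0.286 ± 0.157 FPKM in the cKO (SD, n = 2) and 3.12 ± 3.31 FPKM in the controls (SD, n = 3). The limma log2 change was -1.29 (SE 0.79; adjusted p = 0.593), and the exact permutation p was 0.4. Leaving out control replicate 1 gave -0.64 and leaving out control replicate 2 gave -2.03. The authors' deposited table marked Nkx2-2 as significant, with a log2 fold change of -3.45 and a q-value of 0.00811; among the 8 members it was the single one so marked, and 4.21% of the loci the authors tested were.

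Summed over a list, genes of the hypothalamus and thalamus followed the same order of libraries. The 10 genes summed to 18.3 FPKM in each of the cKO libraries, and to 229, 11.4 and 44.8 FPKM in controls 1 to 3. Of the 9 tested, 8 had log2 changes below 0 and 1 above (median -1.54), none called by limma and none at an unadjusted p under 0.05. Nkx2-4, a homeobox gene of the hypothalamus, was listed at 0 in both cKO libraries and in control 2, and was 4.92 and 3.15 FPKM in controls 1 and 3. Tcf7l2, a Wnt effector strongly transcribed in the thalamus, was 3.36 and 3.98 FPKM in the cKO, against 78.5, 2.48 and 11.5 FPKM in controls 1 to 3. The part of these regions in the Nkx2-2 values was not tested.

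**Figure D3:**
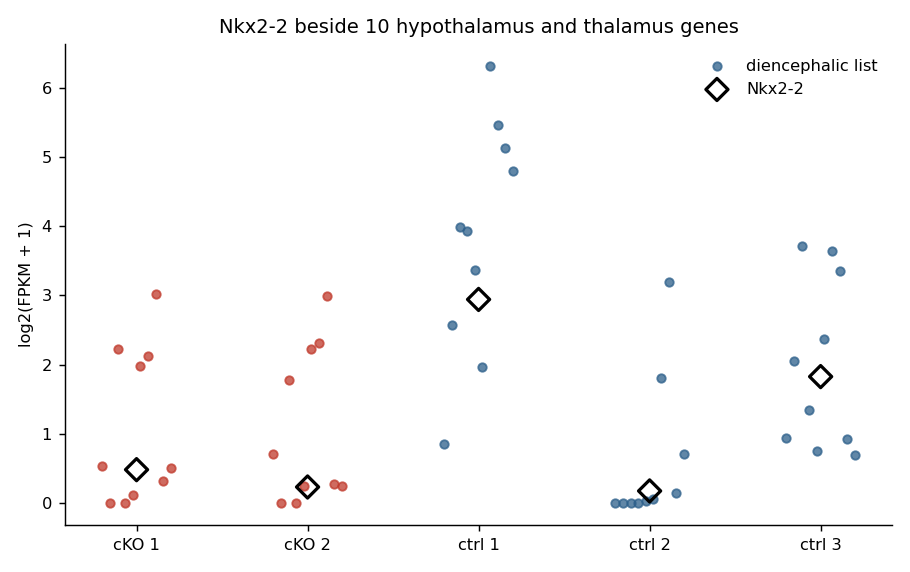
Expression as log2(FPKM + 1) of Nkx2-2 (open diamonds) and of 10 genes of the hypothalamus and thalamus (dots; red for cKO, blue for control), by library. Nkx2-2 and most of the list are high in control 1, intermediate in control 3 and low in control 2 and both cKO libraries.

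By level, the members kept 1 order in both cKO libraries: Olig2, Sox8, Olig1, Pdgfra, Cspg4, Sox10, Egfr and Nkx2-2, from high to low. In the controls the same genes changed places, with Olig1 highest in control 1, Sox8 in control 2 and Olig2 in control 3. Control means of Sox8, Olig2 and Olig1 were 12.7 ± 2.03, 10.4 ± 3.39 and 10.03 ± 5.23 FPKM (SD), and the control values of these genes overlapped. Control levels placed Olig2 at the 42.5th percentile of the tested loci and Pdgfra at the 4.14th. Summed over the 8 members, expression was 52.2 and 51.1 FPKM in the cKO, against 48.2, 30.7 and 42.9 FPKM in controls 1 to 3. Both cKO sums were above every control sum, and control 2 was the lowest.

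Upstream sequence was available for 6 of the 8 members from RefSeq (GRCm38.p6). The 250 bases before a transcript start are shown for members picked by their expression values. These were Olig2 and Pdgfra, with an unadjusted limma p under 0.05, and Nkx2-2, which the authors marked significant. Sequence is not shown for Sox8, Egfr and Cspg4, though Cspg4 also lay above every control in both cKO libraries. The windows shown are chr16:91225300-91225549 on the plus strand, chr5:75152001-75152250 on the plus strand and chr2:147186403-147186652 on the minus strand. Those of Pdgfra and Nkx2-2 lie inside the annotated gene span, before 1 of several starts. Capitals mark CANNTG, the E-box bound by basic helix-loop-helix factors such as Olig2, and TATAAA, the core of a TATA box, each on either strand.
Olig2: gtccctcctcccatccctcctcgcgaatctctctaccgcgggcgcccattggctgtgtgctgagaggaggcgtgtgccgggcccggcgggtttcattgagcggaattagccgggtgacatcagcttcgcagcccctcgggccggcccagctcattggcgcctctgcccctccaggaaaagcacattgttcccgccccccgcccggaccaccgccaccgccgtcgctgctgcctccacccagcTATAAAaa
Pdgfra: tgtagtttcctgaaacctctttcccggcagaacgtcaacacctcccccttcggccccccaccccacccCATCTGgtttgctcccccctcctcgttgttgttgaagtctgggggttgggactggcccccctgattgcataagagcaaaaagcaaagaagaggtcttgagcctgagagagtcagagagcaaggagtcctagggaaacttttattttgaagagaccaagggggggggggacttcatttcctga
Nkx2-2: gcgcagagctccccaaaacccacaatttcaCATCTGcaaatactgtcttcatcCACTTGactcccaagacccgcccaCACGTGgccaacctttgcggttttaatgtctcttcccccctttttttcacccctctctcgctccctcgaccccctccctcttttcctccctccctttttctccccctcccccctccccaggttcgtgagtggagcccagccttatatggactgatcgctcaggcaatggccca
The Olig2 window holds 1 TATAAA, whose first base is 8 bases before the start, and no CANNTG, that of Pdgfra 1 CANNTG and that of Nkx2-2 3. Among 32851 windows of this length in the table, 66.2% hold CANNTG and 12.4% hold TATAAA. The windows contain 22 CpG dinucleotides at Olig2, 4 at Pdgfra and 8 at Nkx2-2, where the median window has 6. That of Cspg4, not shown, holds 12 CpG and neither CANNTG nor TATAAA.

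Other genes of oligodendrocyte precursors did not share 1 direction. A list of 22 further genes enriched in these cells, such as Ptprz1 and Sox6, had 15 tested members, of which 7 were higher and 8 lower in the cKO. None was called by limma, and 4 had an unadjusted p under 0.05, of which 2 were higher and 2 lower. Their median log2 change was -0.04, beside -0.02 over all tested loci. Both cKO libraries lay above every control for 5 of the 15 and below every control for 2, where all tested loci gave 13.4% and 15.6%, and 7.45% of all tested loci had an unadjusted p under 0.05. Bcan, which encodes the matrix proteoglycan brevican, was 3.19 and 2.52 FPKM in the cKO, against 9.999, 23.5 and 12.7 FPKM in controls 1 to 3. Every control was above both cKO libraries, with a limma log2 change of -2.01 (SE 0.36; adjusted p = 0.575). Vcan, which encodes versican, a proteoglycan of the same lectican family, was 50.5 and 51.9 FPKM in the cKO, against 34.9, 31.3 and 34.3 FPKM in controls 1 to 3 (log2 change 0.60, SE 0.12; limma adjusted p = 0.575). The zinc finger factor Myt1 was 21.9 and 15.4 FPKM in the cKO, against 28.6, 27.8 and 25.01 FPKM in controls 1 to 3. Gpr17, a receptor of committed precursors, was at 1.12 and 0.613 FPKM in the cKO and at 0.597, 0.184 and 0.623 FPKM in controls 1 to 3.

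Myelin genes were low throughout. Of 16 genes of mature oligodendrocytes, 8 were tested, with 5 higher and 3 lower in the cKO and a median log2 change of 0.09. None was called by limma, and 1 had an unadjusted p under 0.05, where 7.45% of all tested loci met this. Myrf, the master regulator of myelination, was 0.201 and 0.117 FPKM in the cKO, against 0.175, 0.262 and 0.179 FPKM in controls 1 to 3. Mbp, which encodes myelin basic protein and also gives rise to transcripts in other cells, was 6.54 and 7.30 FPKM in the cKO, against 7.20, 4.63 and 6.11 FPKM in controls 1 to 3. Ugt8a, an enzyme of myelin galactolipid synthesis, was 1.66 and 3.20 FPKM in the cKO, against 1.36, 0.684 and 0.956 FPKM in controls 1 to 3. It was the tested member of this list with both cKO libraries above every control (log2 change 0.75, SE 0.29, limma adjusted p = 0.575). Of all tested loci, 13.4% met this. Bcas1, a gene of early myelinating cells, and the zinc finger gene Zfp536 had overlapping groups, with log2 changes of -0.48 (SE 0.47) and -0.22 (SE 0.19).

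A gene for a ligand of the Pdgfra receptor, Pdgfa, was at 1.23 times the control mean and was not called. Pdgfa was 14.1 and 11.6 FPKM in the cKO, against 11.5, 8.68 and 11.1 FPKM in controls 1 to 3, a log2 change of 0.28 (SE 0.17; limma adjusted p = 0.597). The lower cKO library exceeded the highest control by less than 0.1 FPKM. Of 6 PDGF ligand and receptor genes besides Pdgfra, with Pdgfa among them, 4 were tested, 2 higher and 2 lower, with none called by limma and none at an unadjusted p under 0.05 (median log2 change -0.01). Pdgfb and the beta receptor Pdgfrb had overlapping groups and log2 changes of -0.02 (SE 0.17) and -0.08 (SE 0.19). Among the 15 ERBB receptors, EGFR ligands and feedback genes, 10 were tested, 5 higher and 5 lower, with a median log2 change of 0.03. None was called by limma, and 1 had an unadjusted p under 0.05, where 7.45% of all tested loci met this. Erbb2, the co-receptor of the family, was 2.28 and 2.43 FPKM in the cKO, against 3.53, 5.47 and 3.80 FPKM in controls 1 to 3 (log2 change -0.63, SE 0.21; limma adjusted p = 0.575). Erbb4, a neuregulin receptor of migrating interneurons, was 5.94 and 5.97 FPKM in the cKO, against 4.85, 2.18 and 3.39 FPKM in controls 1 to 3 (log2 change 0.68, SE 0.28; limma adjusted p = 0.575). Lrig1, a feedback inhibitor of these receptors, was 6.17 and 7.55 FPKM in the cKO, against 11.04, 8.63 and 8.24 FPKM in controls 1 to 3. Both cKO libraries lay above every control for 2 of the 10 tested genes (Erbb4 and the EGFR ligand gene Tgfa). They lay below every control for 2 (Erbb2 and Lrig1). All tested loci gave 13.4% above and 15.6% below.

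**Figure D4:**
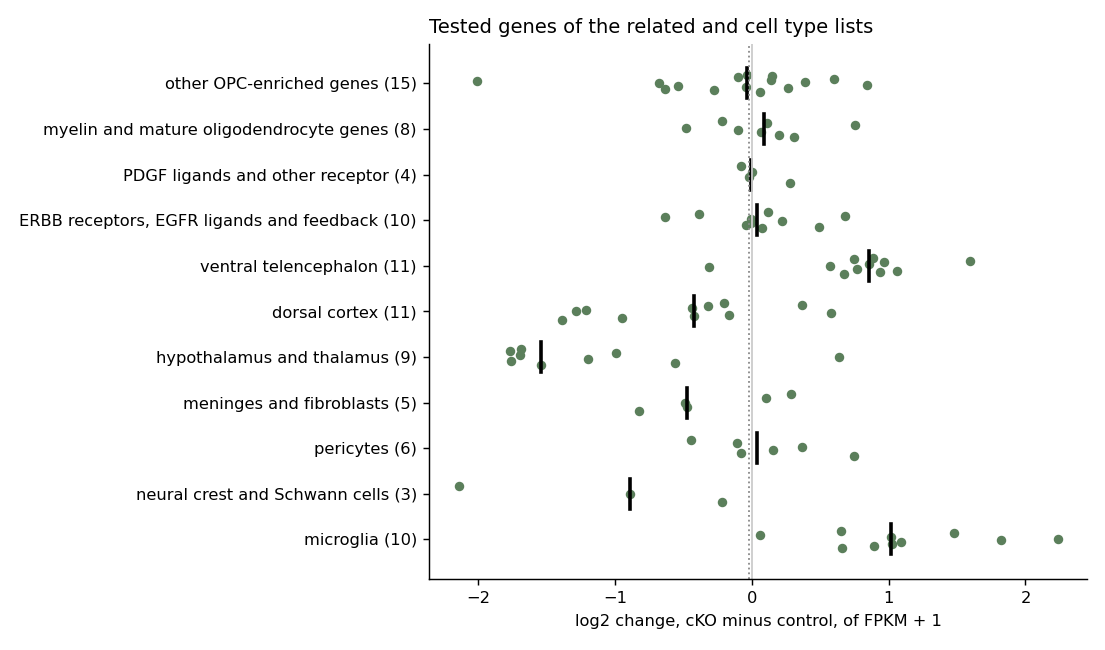
Log2 change (horizontal axis, cKO minus control on log2 of FPKM + 1) of each tested gene of 11 lists, with the number tested in brackets, the list median as a black line and the median of all tested loci as a dotted line. The other precursor genes sit around 0, with Bcan at -2.01, while the ventral telencephalon and microglia lists lie mostly above 0.

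Marker lists of other cells that transcribe the members differed between the libraries. Genes of the ventral telencephalon summed to 476 and 586 FPKM in the cKO, against 267, 230 and 417 FPKM in controls 1 to 3, so both cKO libraries were above every control, as for Olig2. Of its 11 tested genes 10 were higher and 1 lower, none was called by limma, and the median log2 change was 0.85. An unadjusted limma p under 0.05 was found for 3 of them, and for 7.45% of all tested loci. Both cKO libraries lay above every control for 7 of them, and for 13.4% of all tested loci. Dlx2, a homeobox factor of ventral progenitors, was 104 and 117 FPKM in the cKO, against 45.9, 59.2 and 68.1 FPKM in controls 1 to 3. Nkx2-1, the factor of the medial ganglionic eminence, was 14.4 and 64.5 FPKM in the cKO, against 21.3, 4.12 and 46.7 FPKM in controls 1 to 3, and overlapped. The dorsal list summed to 1046 and 686 FPKM in the cKO, against 697, 1561 and 1121 FPKM in controls 1 to 3. Of its 11 genes 9 were lower, 3 of them at an unadjusted limma p under 0.05 and none called (median log2 change -0.42). Both cKO libraries lay below every control for 4 of the 11 (Emx1, Emx2, Eomes and Neurog2), and for 15.6% of all tested loci. They lay above every control for 2 (Tbr1 and Bcl11b), and for 13.4% of all tested loci. The part of the ventral tissue in the values of Olig1 and Olig2 was not tested.

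Meningeal and fibroblast genes, which share Pdgfra, summed to 9.23 and 6.11 FPKM in the cKO, against 5.90, 28.4 and 6.75 FPKM in controls 1 to 3. Control 2 was the highest in this list and the lowest for Pdgfra, at 1.23 FPKM. Lum was listed at 0 in cKO 2 and in controls 1 and 3. Of the 5 tested genes of this list 2 were higher and 3 lower (median log2 change -0.48). None was called by limma or had an unadjusted p under 0.05. Both cKO libraries lay above every control for 1 of the 5, Foxc1, and for 13.4% of all tested loci, and below for 0. Foxc1 was 1.69 and 1.55 FPKM in the cKO, against 1.36, 1.31 and 0.820 FPKM in controls 1 to 3. Pericyte genes, which share Cspg4, summed to 52.03 and 58.02 FPKM in the cKO, against 55.5, 47.004 and 41.9 FPKM in controls 1 to 3. Of the 6 tested, 3 were higher and 3 lower (median log2 change 0.04), with none called by limma. An unadjusted limma p under 0.05 was found for 2, of opposite direction, where 7.45% of all tested loci met this. Rgs5, a pericyte regulator of G protein signalling, was 19.4 and 27.4 FPKM in the cKO, against 15.9, 11.4 and 13.1 FPKM in controls 1 to 3. Notch3, a receptor of mural cells that progenitors also transcribe, was 8.65 and 8.88 FPKM in the cKO, against 12.7, 13.6 and 10.7 FPKM in controls 1 to 3.

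Neural crest and Schwann cell genes, which share Sox10, summed to 1.77 and 1.31 FPKM in the cKO, against 97.1, 4.93 and 0.497 FPKM in controls 1 to 3. The high sum of control 1 came mainly from Tfap2b at 82.3 FPKM, a gene also transcribed in the midbrain, while Erbb3, a neuregulin receptor of Schwann cells, was at most 0.0751 FPKM in any library. The 3 tested genes of this list had negative log2 changes (median -0.89), none called by limma or at an unadjusted p under 0.05. All 10 microglial genes were tested and higher in the cKO (median log2 change 1.02), none was called by limma, 8 had an unadjusted p under 0.05, and 9 lay above every control in both cKO libraries. They summed to 102 and 98.3 FPKM in the cKO, against 30.7, 49.1 and 38.4 FPKM in controls 1 to 3. Of all tested loci, 7.45% had an unadjusted limma p under 0.05 and 13.4% lay above every control in both cKO libraries. The part of these cells in the members' values was not tested.

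The tested loci whose profile over the 5 libraries was nearest to Olig2, by root mean square difference of centred log2(FPKM + 1), were E130008D07Rik (0.0663), Rasgrp1 (0.104), Etv1 (0.129), Zfp652os (0.138) and Ctss (0.145). Among the other members Pdgfra was the nearest to Olig2 (0.272, with 176 loci closer), and Nkx2-2 the farthest (1.25). Etv1, an ETS-family transcription factor, was 6.40 and 7.995 FPKM in the cKO, against 3.43, 2.10 and 4.15 FPKM in controls 1 to 3. With 5 libraries, nearness in this measure is a description only.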

How the data were processed

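RNA of E14.5 mouse cortex was measured in 2 cKO and 3 control libraries, grouped by sample title. The authors deposited FPKM per locus and library and group means of the FPKM. Per the submitters' processing notes, CASAVA, TopHat, Cufflinks, Bowtie2 and MACS and the build mm10 were named for the series with no version. Annotation and strand setting: not given in the sources used here. Besides FPKM, the deposited table holds the authors' comparison, as a log2 fold change, a score of their test, and p-values and q-values. FPKM carries no counts, and whole reads were not recovered: of loci under 0.05 FPKM in both libraries, between 21.0% and 56.0% lay within 0.15 log2 units of the commonest ratio to control 1. Depth is therefore unknown and no count test was run.

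Loci that averaged 1 FPKM or more were tested as log2(FPKM + 1), with limma 3.58.1 under R 4.3.3, an intensity trend and Benjamini-Hochberg adjustment over all tested loci, without covariates. This scale understates changes of low genes. The fit had 3 residual degrees of freedom. The same procedure was tested on simulated data. Single values were compared by exact two-sided permutation of the 10 splits. Alternatives were another pseudocount, other filters, 2 scalings, no trend, the replicate number as a block and leaving out each library.

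The members and all gene lists were chosen with earlier results of these data known. Named genes were the members, Chd8, up to 3 genes per list with the smallest unadjusted p, the 5 loci nearest to Olig2, and list genes whose level marks a cell type. Gpr17, Mbp, Tcf7l2, Nkx2-1 and Lum were named after their values were seen. Gene coordinates and upstream sequences came from RefSeq GRCm38.p6, the assembly that mm10 names.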

Additional observations from a re-analysis of the deposited data

How the results depend on the processing

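No member was called under any of the alternatives, and the tested members Olig1, Olig2, Pdgfra, Sox8, Cspg4 and Nkx2-2 kept their direction in each that gave them a value. Leaving out 1 library moved the number of called loci between 8 and 35, and the log2 change of Sox10 between -0.00048 and 0.53 and of Egfr between -0.25 and 0.14, both without the filter on low values. With the replicate number as a block, 3 loci were called, and the log2 changes then equal those without control replicate 3, the single library of its number; same-numbered libraries deviated with correlations of -0.07 and -0.11 across loci, so the numbers were not taken as pairs. With a mean of at least 5 FPKM, 1 member (Olig2) lay above every control in both cKO libraries, since 3 members remained. The members without overlap were Olig2, Pdgfra and Sox8 after quantile normalization, and these with Cspg4 after upper quartile scaling. The median member change shifted from its value of 0.32 by less than the spread between replicates (0.176) in each alternative. Unknown depth, 5 libraries and levels near 1 FPKM for Pdgfra, Cspg4, Sox10 and Egfr limit the precision.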

Other observations

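The tested loci nearest in profile to Nkx2-2, looked up after its values were seen, were Cartpt, Nkx2-4, Ddc, Gm2694 and Onecut3. Cartpt, which encodes a neuropeptide precursor made in the hypothalamus, was 0.361 and 0.2201 FPKM in the cKO, against 8.08, 0 and 2.18 FPKM in controls 1 to 3. Ddc, the decarboxylase of dopamine and serotonin synthesis, was 1.20 and 1.21 FPKM in the cKO, against 12.6, 0.427 and 2.90 FPKM in controls 1 to 3. Both had the library order of Nkx2-2 at the top, with control 1 highest and control 3 next. The locus nearest to Olig1 was Frmd3, at 7.17 and 5.17 FPKM in the cKO, against 7.77, 2.45 and 4.69 FPKM in controls 1 to 3. Gria4 and Grik1, which encode glutamate receptor subunits, were also among the 5 nearest to Olig1.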
